A study of Mus musculus with 10 samples.

Results

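The serotonin receptor genes were followed in the hindbrain of newborn mice that lack the transcription factor Nkx2.2. Members were all probe sets whose platform symbol is 1 of 10 listed receptor genes, which found 16 of the 45037 probe sets tested and 9 genes, Htr1a, Htr1b, Htr1d, Htr2b, Htr2c, Htr3a, Htr5a, Htr6 and Htr7. No member probe set carried several symbols, and Htr2a was not analysed here. The arrays came from 5 Nkx2.2-/- mice (replicates 11, 12, 22, 29 and 43) and 5 wild-type littermates (WT, replicates 14, 15, 16, 18 and 21), all of the C57BL/6 strain and aged 1.5 to 2 days. RNA was taken from pons, medulla and rostral spinal cord, collected from 20 µm cryostat sections, with 1 array a mouse. How the Nkx2.2 allele was made is not stated in the labels, which name no promoter or Cre and so no restriction to 1 cell type.

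Serotonin reaches the brainstem and spinal cord from the raphe nuclei, most of whose neurons depend on Nkx2.2 for their specification. Its receptors fall into families by their coupling. Htr1a, Htr1b, Htr1d and Htr5a lower cyclic AMP through inhibitory G proteins, Htr2b and Htr2c activate phospholipase C, Htr6 and Htr7 raise cyclic AMP, and Htr3a is a subunit of a ligand-gated cation channel. Htr1a, Htr1b and Htr1d are also autoreceptors: raphe neurons carry the product of Htr1a on cell bodies and dendrites and those of Htr1b and Htr1d on axon terminals, where they restrain firing and release. The same 3 genes are used by neurons that receive serotonin. The question was whether the receptors differ between genotypes, and whether the autoreceptors differ otherwise than the receptors of target neurons.

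Nkx2-2, the gene that the mutants lack, lay between 4.24 and 4.73 in the Nkx2.2-/- mice and between 6.42 and 6.88 in the WT mice. Where its probes lie relative to the mutated part of the gene is not given in the labels, so the gap shows only that the labels and the signal go together. On 2 arrays, Nkx2.2-/- replicate 43 and WT replicate 14, the 3 prime control probe set of Gapdh exceeded the 5 prime one by 3.78 and 2.13 on the log2 scale, against -0.32 to 0.13 on the other 8. A wide gap of this kind is a known sign of shortened RNA or cDNA. For Htr1a, Htr1b, Htr2c, Htr3a and Htr7 the log2 changes by the brightest probe set are given with and without these arrays. Other values include these arrays unless stated.

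None of the 16 receptor probe sets passed the test in either direction. The 9 genes, each by its brightest probe set, had log2 changes (Nkx2.2-/- minus WT) from -0.06 for Htr6 to 0.11 for Htr1a, and each overlapped between the genotypes. Tph2, the enzyme of serotonin synthesis in neurons, and Slc6a4, the serotonin transporter, fell in the same arrays. Of 3 autoreceptor genes, Htr1a and Htr1b lay slightly above 0 and Htr1d slightly below, with 95% intervals that held 0 in each case.

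The promoters of both brighter autoreceptors, Htr1a and Htr1b, and of both raphe markers that fell, Tph2 and Slc6a4, are given to show the sequence in front of genes with and without a difference. They run from 250 bases before the start of the gene to 50 after it, 5′ to 3′ on the strand of the gene, and come from RefSeq on GRCm38.p6. Capitals mark AAGTG, the core of sites for NK2 homeodomain proteins such as Nkx2.2, and GGAAG, the core of ETS sites, the family of the raphe factor Pet1, on either strand. Where matches overlap or touch, as in Htr1a, the capitals run together.
Htr1a, chr13:105443443-105443742, + strand: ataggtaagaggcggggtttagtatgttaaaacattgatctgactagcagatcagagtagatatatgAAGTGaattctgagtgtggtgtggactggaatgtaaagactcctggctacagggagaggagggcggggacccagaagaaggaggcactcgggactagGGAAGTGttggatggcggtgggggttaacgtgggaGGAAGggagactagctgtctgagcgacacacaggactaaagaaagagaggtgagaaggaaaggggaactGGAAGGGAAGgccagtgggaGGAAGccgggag
Htr1b, chr9:81633783-81634082, - strand: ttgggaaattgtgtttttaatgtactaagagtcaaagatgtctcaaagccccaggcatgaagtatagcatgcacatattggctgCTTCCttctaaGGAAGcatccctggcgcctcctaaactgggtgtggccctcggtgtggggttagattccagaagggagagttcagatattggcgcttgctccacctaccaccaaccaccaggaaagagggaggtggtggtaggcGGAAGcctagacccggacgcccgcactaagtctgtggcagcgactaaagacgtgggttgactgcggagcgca
Tph2, chr10:115184973-115185272, - strand: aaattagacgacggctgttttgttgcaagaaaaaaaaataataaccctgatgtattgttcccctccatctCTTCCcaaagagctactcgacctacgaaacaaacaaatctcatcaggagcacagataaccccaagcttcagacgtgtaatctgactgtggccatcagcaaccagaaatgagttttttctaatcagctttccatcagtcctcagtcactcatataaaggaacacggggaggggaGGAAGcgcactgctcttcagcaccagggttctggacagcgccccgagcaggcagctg
Slc6a4, chr11:76998347-76998646, + strand: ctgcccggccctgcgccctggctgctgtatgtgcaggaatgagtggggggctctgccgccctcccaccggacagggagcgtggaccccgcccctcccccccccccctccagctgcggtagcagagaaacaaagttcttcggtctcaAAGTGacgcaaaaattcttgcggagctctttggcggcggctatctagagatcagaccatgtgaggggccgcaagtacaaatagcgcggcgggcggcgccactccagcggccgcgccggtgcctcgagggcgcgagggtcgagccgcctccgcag
Htr1a held 2 matches to AAGTG and 5 to GGAAG, and Htr1b held 0 and 3. Tph2 held 0 and 2, and Slc6a4 held 1 and 0. Over all 32851 promoters of the same length, 46.4% held AAGTG and 71.4% held GGAAG, so a match is common and is given as a description of these letters only. Of the 11 promoters that the table lists for receptor genes, with Htr2a among them and without Htr3a, 4 held AAGTG and 9 held GGAAG.

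Arrays give the brightness of a probe set, with no detection call, so probe sets for chemosensory receptors of the nose served as a yardstick of dim signal. The 81 such probe sets had a median of 4.46 and a 95th percentile of 5.17, in log2 RMA values averaged over the 10 arrays. Of the 16 receptor probe sets, 6 were brighter than that percentile: 1 of Htr1a, both of Htr1b, and 1 each of Htr2c, Htr3a and Htr7. Only 3 of these, both of Htr1b and the brighter of Htr2c, also exceeded the brightest yardstick probe set, at 5.95. Those of Htr1a, Htr3a and Htr7 lay within the range of the yardstick. The remaining 10 lay under the 95th percentile, with every probe set of Htr1d, Htr2b, Htr5a and Htr6 among them. All but the dimmer probe set of Htr7 lay above the median of the yardstick. For these 10 a difference would be compressed towards 0, and a small change is not read as an absence of difference. The same may hold in part for the brightest probe sets of Htr1a, Htr3a and Htr7. Tph2, which passed the test, also lay under the 95th percentile when averaged over the 10 arrays. Its mean was 5.82 in the WT mice and 4.38 in the Nkx2.2-/- mice. Brightness also depends on the probes, so it ranks no receptor by its amount of RNA.

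**Figure D1:**
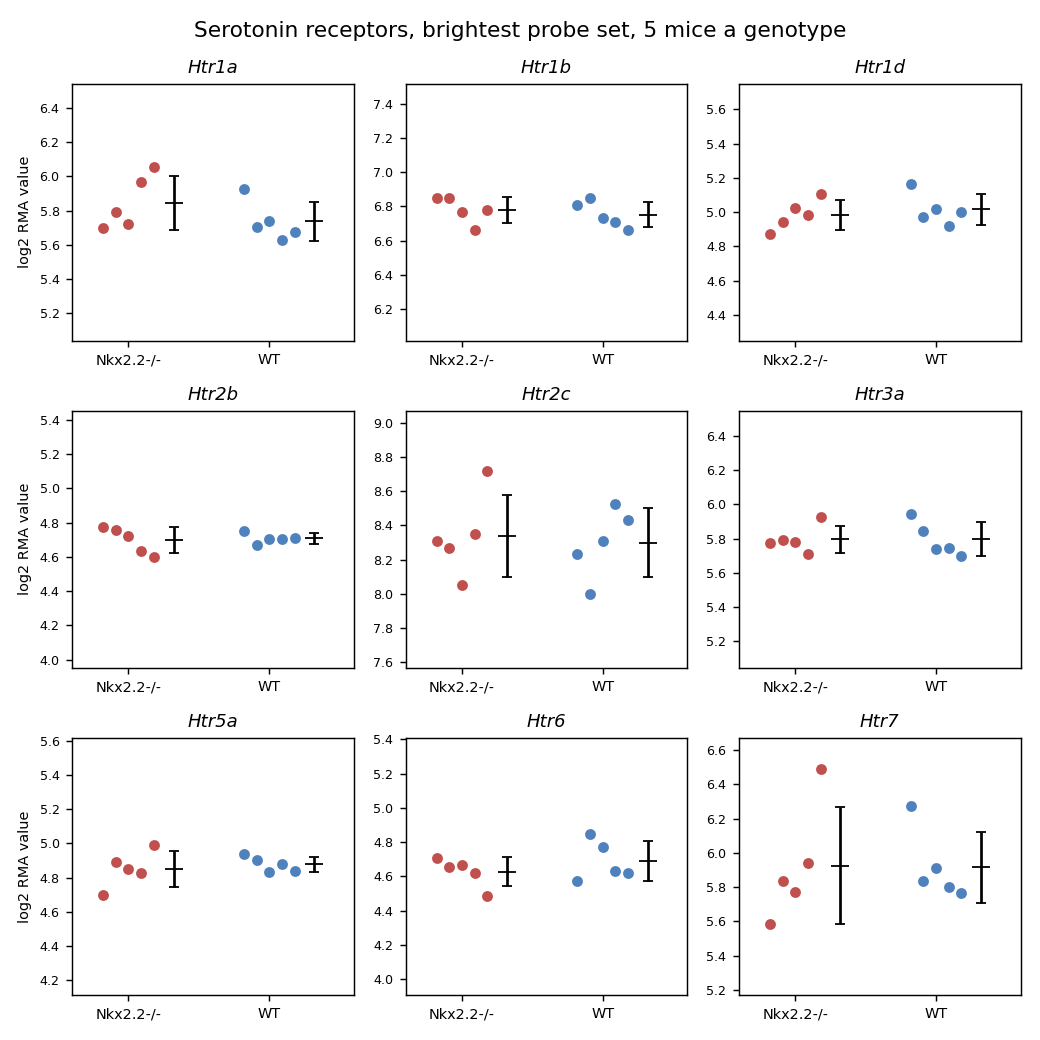
Log2 RMA value of the brightest probe set of each of 9 serotonin receptor genes, with 1 point a mouse and the mean with SD beside the points (red, Nkx2.2-/-; blue, WT; n = 5 each). Every panel spans 1.5 log2 units, and in each the genotypes overlap.

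Htr1a, the receptor that hyperpolarises raphe neurons, lay at 5.70, 5.79, 5.72, 5.96 and 6.05 in Nkx2.2-/- replicates 11, 12, 22, 29 and 43, against 5.93, 5.71, 5.74, 5.63 and 5.68 in WT replicates 14, 15, 16, 18 and 21. Nkx2.2-/- replicates 29 and 43 were above every WT mouse, and the other 3 lay within the WT range. Htr1a averaged 5.85 ± 0.156 in Nkx2.2-/- mice and 5.74 ± 0.115 in WT mice (SD, n = 5 each). The log2 change was 0.11, and its 95% interval ran from -0.07 to 0.29 (limma, Benjamini-Hochberg adjusted p = 0.9997). An exact two-sided permutation test gave p = 0.214, unadjusted. Its dimmer probe set gave 0.09 (interval -0.02 to 0.20). Both probe sets were thus on the same side of 0, and the largest fall inside the interval of the brighter one was 1.05-fold. That bound is for the bulk RNA. Neurons that receive serotonin also use Htr1a, so a fall limited to raphe neurons was not tested.

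Htr1b, which lowers transmitter release at terminals, lay at 6.85, 6.85, 6.77, 6.66 and 6.78 in Nkx2.2-/- replicates 11, 12, 22, 29 and 43, against 6.81, 6.85, 6.73, 6.71 and 6.66 in WT replicates 14, 15, 16, 18 and 21. These values ran through the same range in both genotypes. The genotypes differed by 0.03 (95% interval -0.08 to 0.14, limma adjusted p = 0.9997). The second probe set, nearly as bright, lay at 6.31, 6.47, 6.25, 6.66 and 6.93 in the Nkx2.2-/- mice, against 6.62, 6.26, 6.43, 6.51 and 6.44 in the WT mice. It gave 0.07 (interval -0.20 to 0.34). Over the 10 arrays both probe sets of Htr1b correlated at r = -0.28, given as a description, so they did not order the mice alike.

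Htr1d, a terminal autoreceptor close in kind to Htr1b, was read by 3 dim probe sets. The brightest lay between 4.87 and 5.10 in the Nkx2.2-/- mice, with a median of 4.99, and between 4.92 and 5.16 in the WT mice, with a median of 5.0. Its log2 change was -0.03 (interval -0.15 to 0.09, limma adjusted p = 0.9997), and the others were at 0.03 and -0.01. Without WT replicate 14 the first value was 0.01. No direction is therefore given for Htr1d.

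Among receptors of target neurons, Htr2c was the brightest. This receptor drives motoneuron excitability in the spinal cord and is also abundant in the choroid plexus. Its values were 8.31, 8.27, 8.05, 8.35 and 8.72 in Nkx2.2-/- replicates 11, 12, 22, 29 and 43, against 8.24, 8.0, 8.31, 8.52 and 8.43 in WT replicates 14, 15, 16, 18 and 21. Nkx2.2-/- replicate 43 alone was above every WT mouse. The log2 change was 0.04, inside an interval from -0.23 to 0.31 (limma adjusted p = 0.9997). It was -0.06 without that mouse. Htr2c lies on the X chromosome, and Xist, a marker of female mice, was unevenly spread. Xist lay at 10.6, 5.83, 10.7, 10.5 and 5.47 in the Nkx2.2-/- mice, against 5.61, 5.54, 10.4, 5.63 and 10.7 in the WT mice. With a sex covariate the log2 change of Htr2c was 0.05 (interval -0.23 to 0.34). The second probe set, near the median of the yardstick, gave 0.08.

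Choroid plexus RNA varied widely between the mice. Ttr, the transthyretin of that tissue, lay at 12.7, 11.97, 7.08, 8.82 and 11.6 in Nkx2.2-/- replicates 11, 12, 22, 29 and 43, against 9.32, 10.9, 11.97, 12.6 and 12.6 in WT replicates 14, 15, 16, 18 and 21. Ttr thus overlapped between the genotypes. The mean of the 8 measured choroid plexus genes of 10 listed ran from 5.07 to 6.72 in the Nkx2.2-/- mice and from 5.43 to 6.87 in the WT mice, and 0 of the 8 passed the test. With this mean as a covariate the log2 change of Htr2c was 0.09 (limma adjusted p = 0.9999). Beyond this covariate the part of choroid plexus RNA in the Htr2c values was not tested.

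Htr7, which raises cyclic AMP and is found on respiratory and locomotor neurons, had the widest spread. It lay at 5.59, 5.84, 5.77, 5.94 and 6.49 in Nkx2.2-/- replicates 11, 12, 22, 29 and 43, against 6.27, 5.84, 5.91, 5.80 and 5.76 in WT replicates 14, 15, 16, 18 and 21. The top mouse of each genotype stood clear of the rest, and the other mice overlapped. Over all mice the log2 change was 0.01 (interval -0.33 to 0.35, limma adjusted p = 0.9997). The dim second probe set gave 0.09, with 3 of 5 Nkx2.2-/- mice above every WT mouse (exact two-sided permutation p = 0.0952, unadjusted).

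Htr3a, the channel subunit, lay at 5.78, 5.79, 5.78, 5.71 and 5.93 in Nkx2.2-/- replicates 11, 12, 22, 29 and 43, against 5.95, 5.85, 5.74, 5.75 and 5.70 in WT replicates 14, 15, 16, 18 and 21. Every Nkx2.2-/- mouse lay inside the WT range, and the genotypes differed by 0.00072 (interval -0.12 to 0.13, limma adjusted p = 0.9997). Htr3a is also a gene of sensory ganglia. The mean of 7 measured ganglion genes of 10 listed ran from 5.21 to 5.76 in the Nkx2.2-/- mice and from 5.45 to 5.72 in the WT mice. The part of ganglion RNA in the Htr3a values was not tested.

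The dim receptors of target neurons stayed close together. Htr6, a receptor of forebrain neurons for the most part, ranged from 4.49 to 4.71 in the Nkx2.2-/- mice (median 4.66) and from 4.58 to 4.85 in the WT mice (median 4.63), a difference of -0.06 (interval -0.20 to 0.07). Htr2b, best known from heart valves and vessels, had -0.01 (interval -0.10 to 0.08). Htr5a, whose product couples to inhibitory G proteins, had -0.03 and 0.02 in its 2 probe sets. Of other receptor genes on the array, Htr1f, Htr3b and Htr5b had log2 changes of 0.01, 0.04 and -0.07 by their brightest probe sets, and none passed (limma adjusted p = 0.9997 for each).

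**Figure D2:**
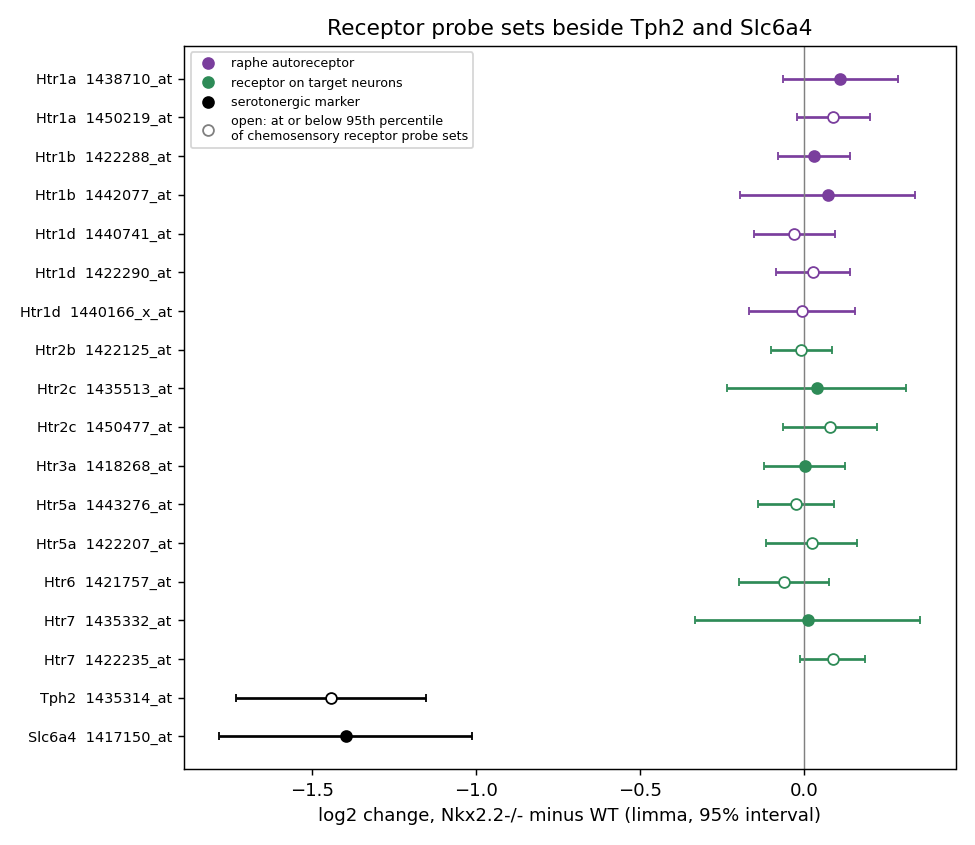
Log2 change with its 95% limma interval (Nkx2.2-/- minus WT) for the 16 receptor probe sets, and for Tph2 and Slc6a4. Purple marks raphe autoreceptors, green receptors on target neurons and black the serotonergic markers. Open points are probe sets no brighter on average than the 95th percentile of the yardstick. All 16 receptor intervals hold 0, and both marker intervals lie below -1.

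Among all probe sets, 23 of 45037 probe sets, or 0.0511%, fell and 0 rose (limma, adjusted p under 0.05). Of the receptor probe sets 0 of 16 passed, and 0 of 16 had an unadjusted limma p under 0.05, which 3.43% of all probe sets had. At such shares a count of 0 in 16 says little, and the intervals carry the result. Groups did not overlap in 0 of the 16, against 0.757% of all probe sets. The 7 autoreceptor probe sets had a median log2 change of 0.03, the 9 of target receptors one of 0.01 and all probe sets one of 0.0010. Positive values were found in 5 of 7 and 6 of 9, against 50.8% of all probe sets. The mean of the 3 autoreceptors minus the mean of the 6 target receptors was 0.16, 0.16, 0.20, 0.19 and 0.11 in Nkx2.2-/- replicates 11, 12, 22, 29 and 43, against 0.18, 0.16, 0.12, 0.04 and 0.10 in WT replicates 14, 15, 16, 18 and 21. These ranges overlapped between the genotypes.

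The autoreceptors were then set against Tph2 and Slc6a4, since raphe neurons use all of them. Tph2 lay at 4.64, 4.43, 4.12, 4.35 and 4.34 in Nkx2.2-/- replicates 11, 12, 22, 29 and 43, against 5.99, 5.89, 5.67, 6.14 and 5.43 in WT replicates 14, 15, 16, 18 and 21. It fell by 1.44 on the log2 scale (limma adjusted p = 0.00144), without overlap. Slc6a4 lay at 5.55, 5.12, 5.05, 5.09 and 5.20 in the Nkx2.2-/- mice, against 6.98, 6.71, 6.14, 6.95 and 6.22 in the WT mice. It fell by 1.40 (limma adjusted p = 0.0165), again without overlap. In such bulk RNA fewer cells of a type and less RNA per cell cannot be told apart. Htr1a minus Tph2 was 1.06, 1.36, 1.6, 1.61 and 1.71 in the Nkx2.2-/- mice, against -0.06, -0.18, 0.07, -0.51 and 0.25 in the WT mice. The log2 change of Htr1a was thus 1.55 above that of Tph2. That of Htr1b was 1.47 above, and that of Htr1d 1.41 above. Against Slc6a4 the differences were 1.51, 1.43 and 1.37 for Htr1a, Htr1b and Htr1d. All 6 differences had groups without overlap and an exact two-sided permutation p of 0.00794, adjusted over the 6 also 0.00794, the smallest that 5 against 5 can give. In the Nkx2.2-/- mice Tph2 averaged 4.38, below the median of the yardstick, so its fall may be compressed and the differences against it are approximate. The lower marker made up most of each difference, and all of it for Htr1d. The fall of both markers was known from earlier results of these data. Any gene that changed little would therefore give such a p, which is no independent evidence about the autoreceptors. The 6 differences also share 2 markers, so the adjustment over the 6 adds little. Htr1d is dim, so its own part in that difference may be compressed.

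**Figure D3:**
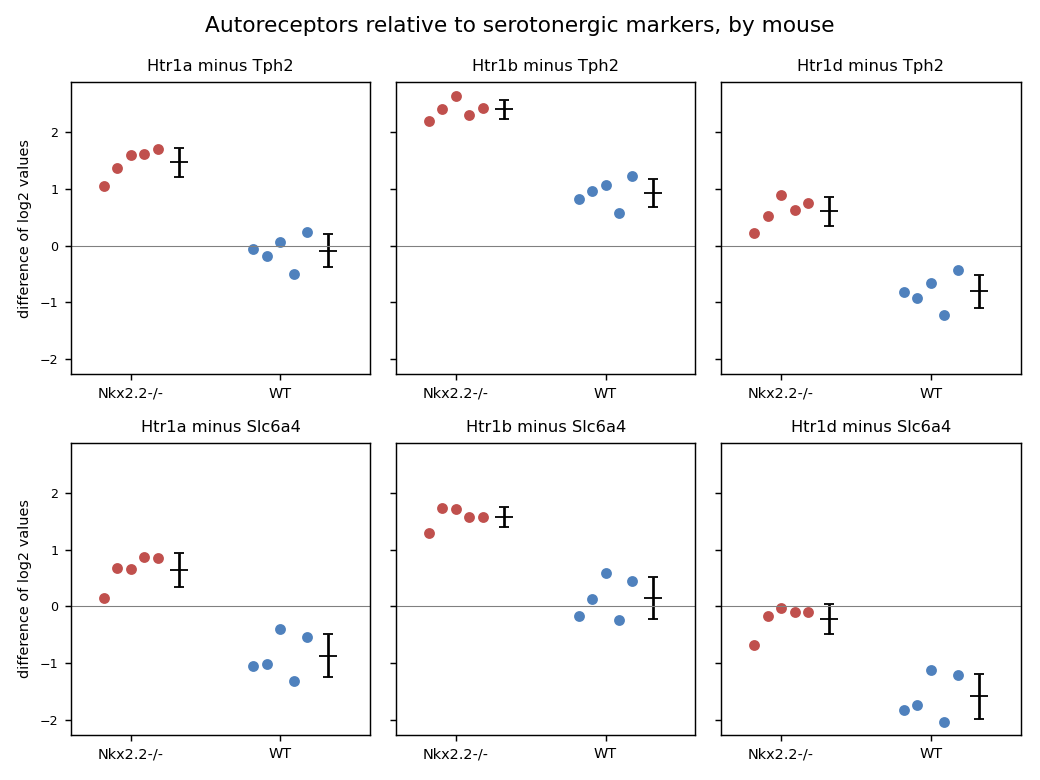
Difference between the log2 value of an autoreceptor and that of Tph2 (top row) or Slc6a4 (bottom row) in each mouse, with the mean and SD beside the points (red, Nkx2.2-/-; blue, WT; n = 5 each). The height of a panel depends on the probes, and only the gap between genotypes is read: in all 6 panels every Nkx2.2-/- mouse is above every WT mouse.

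The list of serotonergic neuron genes was read beside the autoreceptors. Of 12 measured of 14 listed, 3 fell and 0 rose: Tph2, Slc6a4 and Gchfr, which regulates the first enzyme of tetrahydrobiopterin synthesis, at -0.42 (limma adjusted p = 0.0326). The list held genes already known to be lower here, so its count is no independent evidence. Ddc, the decarboxylase that makes serotonin from its precursor, was at -1.17 (limma adjusted p = 0.124), with no overlap between genotypes. Slc18a2, the vesicular monoamine transporter, and Gch1, the first enzyme of tetrahydrobiopterin synthesis, were at -0.47 and -0.27, also with no overlap (limma adjusted p = 0.534 and 0.409). Maob, a monoamine oxidase, was at -0.13. Without both arrays of low 5 prime Gapdh signal Ddc, Slc18a2 and Gch1 were at -1.11, -0.39 and -0.25. The transcription factors of the list, which have wider expression, had -0.69 for En2, -0.27 for En1, -0.18 for Gata3, 0.05 for Gata2 and 0.15 for Lmx1b. The genotypes overlapped in each of these, and none passed (limma adjusted p = 0.9997 for each). En2 was highest in Nkx2.2-/- replicate 11 and WT replicates 18 and 21, at 6.57, 6.73 and 6.09. The mean of 9 cerebellum genes was also highest in these mice, at 7.03, 7.27 and 6.72, against 6.02 to 6.20 in the others. All 9 had negative log2 changes, and 0 passed. The part of cerebellum RNA in the En1 and En2 values was not tested.

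Genes of receptor signalling were measured in 4 lists. In either direction 0 of their 40 members passed, against 0.0511% of all probe sets (limma). At that share a count of 0 in 40 says little, and the same holds for the shorter lists of other tissues. The 9 G protein alpha subunits had a median log2 change of -0.00092, with Gnai2, of the inhibitory class used by Htr1a, at -0.08 and Gnaq, used by Htr2c, at 0.08. The 11 adenylyl cyclases and phospholipases had a median of 0.04, with Adcy1 at 0.13 and Adcy9 at 0.11. The 4 genes of potassium channel subunits, of the class opened by Htr1a in raphe neurons, had a median of 0.01. They ran from -0.07 for Kcnj3 to 0.06 for Kcnj6. Among 16 regulators and partners, with a median of -0.01, S100a10, which binds the product of Htr1b, had -0.24 (interval -0.49 to 0.01). Deaf1, a transcriptional regulator of Htr1a, had 0.22 (interval -0.02 to 0.46). Both missed the test (limma adjusted p = 0.9997).

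**Figure D4:**
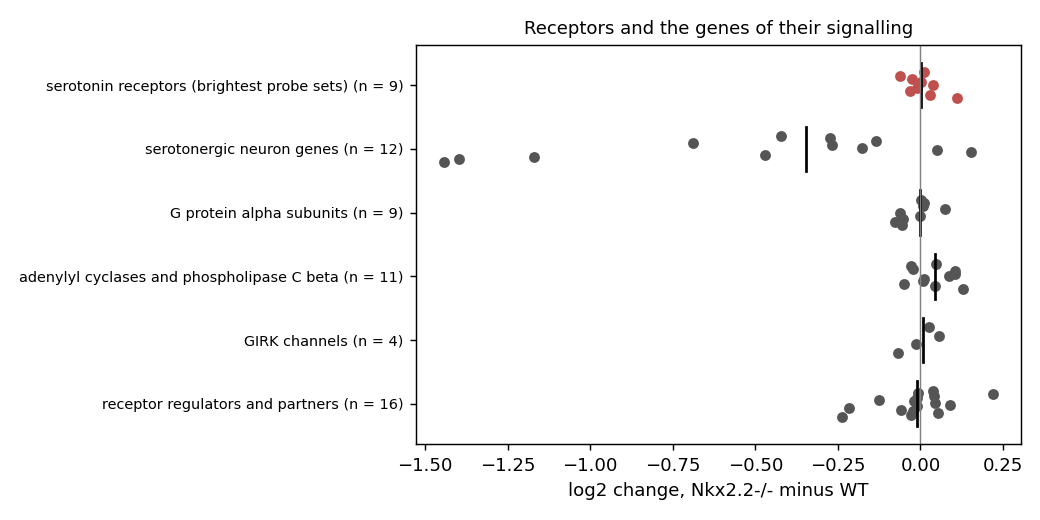
Log2 change (Nkx2.2-/- minus WT) of each gene by its brightest probe set, with 1 point a gene and a bar at the median of the list. Receptor and signalling genes lie within 0.24 of 0, and genes of serotonergic neurons run from -1.44 to 0.15. Below 0 lie 10 of 12 genes of serotonergic neurons, 20 of 40 signalling genes and 4 of 9 receptors. Over all probe sets 22180 of 45037 lie below 0. The serotonergic list held genes already known to be lower here.

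The 2 arrays of low 5 prime Gapdh signal were followed through the receptors. Nkx2.2-/- replicate 43 was the highest of its genotype in 9 of the 16 receptor probe sets, or 56.2%, and in 24.6% of all probe sets. WT replicate 14 was the highest of its genotype in 11 of 16, or 68.8%, and in 24.6% of all. Several of the 16 probe sets read the same gene. Among all probe sets brighter than the 95th percentile of the yardstick the shares were 36.5% for replicate 43 and 33.0% for replicate 14. Of the 6 receptor probe sets that bright, the counts were 5 and 4. For Htr7 these 2 arrays lay 0.70 and 0.45 above the mean of the others of their genotype, and for Htr1a 0.26 and 0.24 above. Without both arrays the log2 changes of Htr1a, Htr1b, Htr2c, Htr3a and Htr7 were 0.11, 0.04, -0.07, 0.01 and -0.04. The interval of Htr7 then narrowed to between -0.21 and 0.12 (limma adjusted p = 0.9998), and no receptor passed.

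**Figure D5:**
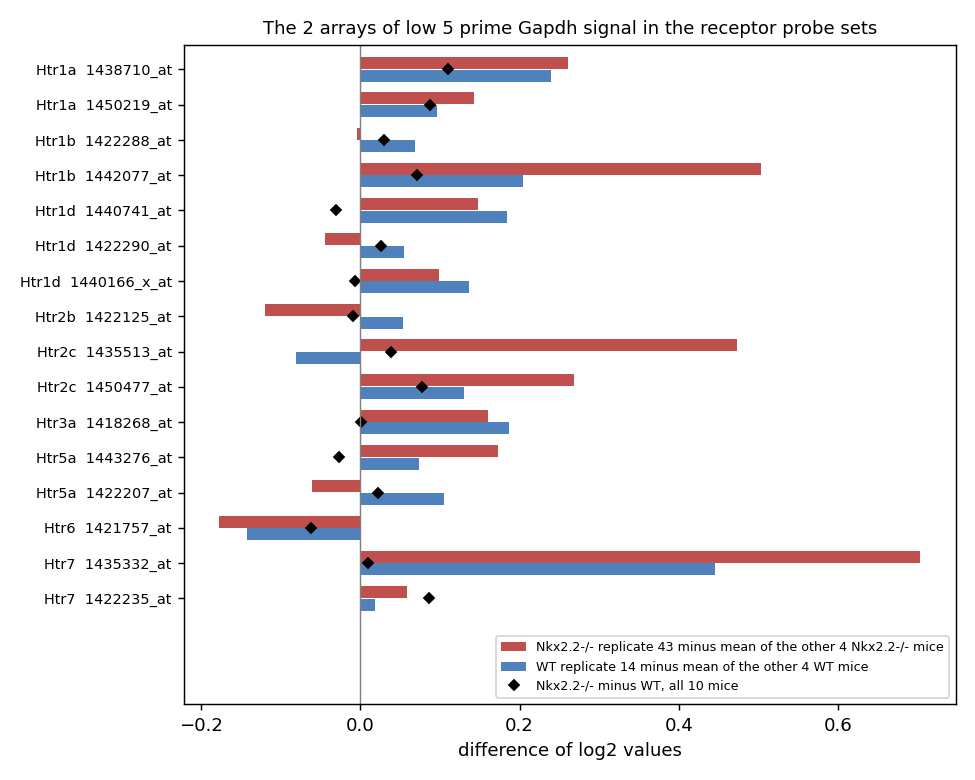
For each receptor probe set, the difference between Nkx2.2-/- replicate 43 and the mean of the other 4 Nkx2.2-/- mice (red), and between WT replicate 14 and the mean of the other 4 WT mice (blue), in log2 values. Diamonds give the log2 change between genotypes over all 10 mice. For the brighter Htr7 probe set the bars reach 0.70 and 0.45, and the diamond is at 0.01.

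Caudal Hox genes, which mark the posterior end of the dissected tissue, did not pass the test. All 10 measured caudal Hox genes of 11 listed had positive log2 changes and 0 passed. Their mean was 5.05, 5.10, 5.49, 5.52 and 5.22 in Nkx2.2-/- replicates 11, 12, 22, 29 and 43. In WT replicates 14, 15, 16, 18 and 21 it was 4.95, 4.97, 5.06, 4.96 and 5.09. The genotypes overlapped through Nkx2.2-/- replicate 11 alone, and every other Nkx2.2-/- mouse was above every WT mouse. Whether the dissected tissue reached further back in the Nkx2.2-/- mice was not tested. Hoxc8 had the largest value of the list at 1.33, with 3 of 5 Nkx2.2-/- mice above every WT mouse (limma adjusted p = 0.9997). With the mean of the list as a covariate Htr1a was at 0.08 and Htr1b at 0.12, with intervals of -0.18 to 0.33 and -0.01 to 0.25. Slc6a5, the glycine transporter of hindbrain and spinal neurons, lay between 6.52 and 7.89 in the Nkx2.2-/- mice and between 6.78 and 7.66 in the WT mice. The mean of 6 measured forebrain and midbrain genes of 8 listed ran from 5.07 to 5.22 in the Nkx2.2-/- mice and from 5.06 to 5.27 in the WT mice. Of these, Neurod6 averaged 6.42 in the Nkx2.2-/- mice and 6.40 in the WT mice, and Lhx2 averaged 5.97 and 6.10. Both were brighter than the 95th percentile of the yardstick. Emx1 averaged 5.10 in the Nkx2.2-/- mice and 5.08 in the WT mice, and Pitx3 averaged 4.82 and 4.79. Tbr1 lay between 4.06 and 4.25 in the Nkx2.2-/- mice and between 3.87 and 4.42 in the WT mice. Emx1, Pitx3 and Tbr1 were no brighter than that percentile. Whether forebrain or midbrain tissue was present, and its part in the receptor values, was not tested.

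For 5 receptors brighter than the median probe set, the genes most alike over the 10 arrays were sought by the Pearson correlation of deviations from the genotype means, as a description. Htr7 was most like Zfp14 (r = 0.99), Agk (0.99) and Grm8 (0.99), the last a metabotropic glutamate receptor gene, and 774 of 18192 genes exceeded 0.9. Htr1a was most like Gphn (0.99), which encodes the glycine receptor anchor gephyrin, Cacna2d3 (0.99) and Gfra1 (0.98), with 694 genes over 0.9. Without both arrays of low 5 prime Gapdh signal these 6 correlations were between 0.94 and 0.99. Htr1b had 22 genes over 0.9, led by Slco1b2 (0.96), Htr2c had 47, led by Zfp397 (0.98), and Htr3a had 7, led by Gramd3 (0.94). That last correlation was 0.73 without both arrays. Tissue markers and the Gapdh gap also differed between the mice, so likeness is not read as shared control.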

How the data were processed

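The deposited log2 values were made by the authors with RMA (no version stated), per the submitters' processing notes. That method draws all arrays to 1 distribution and compresses differences between dim probe sets. Groups came from the sample titles, and litters were not used, so littermates count as separate replicates. The number of arrays limits the precision. Of 45101 probe sets 64 controls were left out, and symbols came from the platform annotation. RefSeq of assembly GRCm38.p6 changed 0 symbols. The genotypes were tested with limma 3.58.1 under R 4.3.3 (lmFit, eBayes), with Benjamini-Hochberg adjustment at 0.05 over all 45037 probe sets, without covariates. The fit was tested on simulated data. Exact permutation tests ran over the 252 splits of the mice (scipy 1.17.1). The brightest probe set over all arrays stands for a gene. Named were all members, Htr1f, Htr3b and Htr5b, genes of serotonergic neurons set beside a receptor, in the other lists genes that passed or otherwise up to 3 of lowest p, of which examples are given, and the 3 most alike genes. Slc6a5, Neurod6, Tbr1, Xist and Nkx2-2, the AAGTG and GGAAG motifs and the Gapdh covariate were chosen after seeing the data. The members and lists were chosen with earlier results of these data known. Alternatives covered the summary by gene, dim probe sets, normalization, the variance prior, array weights, covariates and leaving out arrays.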

Additional observations from a re-analysis of the deposited data

Results flagged for a closer look

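Among 44 sets of 5 values checked for 1 mouse far from the others, 3 had one, and chance gives about 1 in 20. In Htr7 WT replicate 14 was the highest WT mouse at 6.27, with the next at 5.91. In Htr1a minus Slc6a4 Nkx2.2-/- replicate 11 was the lowest Nkx2.2-/- mouse at 0.15, with the next at 0.67. In Htr1d minus Slc6a4 the same mouse was lowest at -0.68, with the next at -0.17. The last 2 share the Slc6a4 value of that mouse, and it still lay above every WT mouse in both.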

How the results depend on the processing

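No paired analysis was run, since the genotypes share no replicate numbers and litters were not used. The alternatives gave 194 receptor log2 changes, from 22 fits that share most of their arrays. No receptor passed the test in any of them (limma). Htr1a, Htr1b and Htr6 kept their sign in every alternative run, from 0.06 to 0.16, from 0.01 to 0.12 and from -0.09 to -0.02. The sign turned in 28 of the 194 log2 changes, all of them of the other receptors. With array weights Htr2b was 0.027, Htr2c -0.015, Htr3a -0.00076 and Htr7 -0.031. With the caudal Hox covariate Htr2b was 0.034 and Htr7 -0.0013. With the choroid plexus covariate Htr3a was -0.013 and Htr7 -0.050. With the Gapdh covariate, chosen after seeing the data, Htr3a was -0.021 and Htr7 -0.067. Without both arrays of low 5 prime Gapdh signal Htr2b was 0.025, Htr2c -0.073 and Htr7 -0.042. Leaving out 1 array at a time gave -0.061 to 0.0059 for Htr1d, -0.029 to 0.014 for Htr2b, -0.057 to 0.109 for Htr2c, -0.031 to 0.038 for Htr3a, -0.061 to 0.012 for Htr5a and -0.131 to 0.099 for Htr7. The cause of these turns was not tested. The differences between autoreceptors and markers lay between 1.26 and 1.66 over the alternatives run. Their exact p was always the smallest that the number of mice allows (0.0286 without both arrays of low 5 prime Gapdh signal), so it does not rank them. Setting a common median cannot move a difference within an array. The 23 probe sets that fell became 11 genes by the brightest probe set and 12 by the mean of probe sets, with fewer features tested. They became 11 probe sets with the caudal Hox covariate. The count was 31 with a trended and robust variance prior and 31 with the Gapdh covariate. Leaving out 1 array at a time gave counts of 18 to 23. Signal near background limits the 10 dim receptor probe sets, and may limit the brightest ones of Htr1a, Htr3a and Htr7.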
